A study of Mus musculus with 12 samples.

Results

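Endothelial cells line every vessel of the lung, and at postnatal day 5 the mouse lung is still building its alveolar capillary bed. This account describes the unperturbed transcriptome of these cells, as a ranking of genes by level and without any contrast between groups. Its members are the 4 WT libraries of a series of 12, chosen by their label alone. The cells were taken by fluorescence-activated sorting from lungs of wild-type C57BL/6J mice at postnatal day 5, and the gate used to sort them is not given in the sources used here. Whether these mice carried a Cre driver or were given an inducing drug is not stated. The 8 libraries from mice with endothelial deletions of Lats1 and Lats2, with or without Yap1 and Wwtr1, served only to find rows of the table that could not be trusted. No label says that the 4 libraries came from separate animals, so the spread between them may be partly technical.

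Capillary endothelium of the lung contains general capillary cells, which act as the progenitors of the bed, and aerocytes, large thin cells that lie against the alveolar epithelium and are specialised for gas exchange. Arterial, venous and lymphatic endothelium make up the rest. All of these share a junctional and receptor program (VE-cadherin, PECAM1, claudin 5, VEGF receptors, TIE receptors, endoglin with ALK1) under transcription factors of the ETS, SOXF, forkhead and KLF families.

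Each library gave 1 value per gene on a log2 scale, so that a difference of 1 is a doubling. The values had been quantile normalized, which gives every library the same set of values, and a gene's level is in effect its rank. The assay reads a tag near the 3′ end of each transcript. Among the 8338 protein-coding genes above 0 in all 4 libraries, level and exonic length were almost unrelated across genes (Spearman's rho of 0.0828, a description). Levels of different genes were therefore compared per tag, without division by length. Other gene-specific effects on tag counts, such as reads that match several places in the genome, were not tested. A difference in level between genes may thus not be one of expression alone. The total count of each library is unknown. The table holds 24421 rows, of which 20478 were protein-coding genes that could be ranked. Of these, 40.7% lay above 0 in all 4 libraries and 36.3% in none, and the median level of all protein-coding genes was 2.98. The gene at rank 1000, the bound of the top 4.88%, had a mean of 10.89. Values are given as mean ± SD of 4 libraries (n = 4 throughout), and the 4 values of a gene are listed in the order of replicates 1 to 4. The median SD fell from 1.01 for genes at levels of 6 to 8 to 0.274 at 12 to 14. Pearson's r between libraries over all protein-coding genes, which are not independent replicates, was 0.856 to 0.868. Over the 8338 genes above 0 in all 4 libraries it was lower, at 0.767 to 0.804. 1 library, replicate 4, carried the female transcript Xist at 15.44 against 5.80 to 7.39 in the others, and the Y-linked Ddx3y at 3.04 against 9.85 to 9.97.

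The cells carried all 4 defining endothelial markers at high level. Pecam1, an adhesion molecule of endothelial junctions, stood at 15.003, 15.13, 14.86 and 14.66, or 14.91 ± 0.20, and ranked 12 of 20478. Cldn5, which seals endothelial tight junctions, stood at 14.33, 14.25, 14.11 and 14.56, or 14.31 ± 0.19, at rank 30. All 4 values of Pecam1 were above all 4 of Cldn5. Cdh5, the adherens junction cadherin VE-cadherin, stood at 12.97, 12.88, 13.45 and 12.93, or 13.05 ± 0.26, at rank 136. Kdr, the main signalling receptor for VEGF-A, stood at 12.32, 12.71, 12.93 and 12.72, or 12.67 ± 0.26, at rank 215. Cdh5 was above Kdr in every library, by 0.39 ± 0.24, but the ranges of these neighbours overlapped. Both lay below Cldn5 in every library without overlap. The curve of level against rank shows where these markers sit relative to some genes of other cells.

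**Figure D1:**
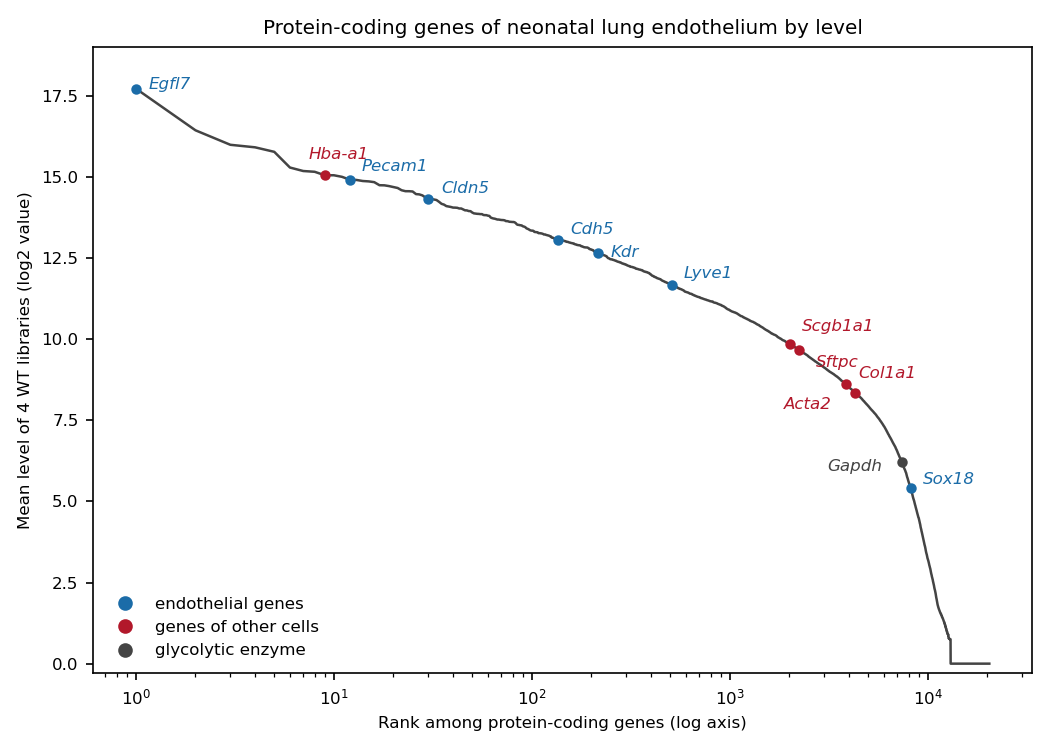
Mean level over the 4 WT libraries (log2 value, vertical axis) of the 20478 ranked protein-coding genes against their rank (log axis), with named endothelial genes in blue, genes of other cells in red and the glycolytic enzyme gene Gapdh in grey. The 4 defining markers sit between ranks 12 and 215, while the surfactant, club cell, fibrillar collagen and smooth muscle genes plotted sit beyond rank 1000 and the alpha-globin gene Hba-a1 at rank 9. Of 208 genes in the lists for other cell types, 9 rank in the top 1000. Type 1 epithelial genes, such as Akap5 at rank 679 and Ager at rank 1610, are not plotted.

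Egfl7, which encodes a matrix protein secreted by endothelial cells, was the most abundant protein-coding transcript in every library, at 17.72, 17.72, 17.72 and 17.72. Its SD of 0 says only that it held the same rank in each library, which quantile normalization turns into the same value. Egfl7 stood 1.29 above the next gene, Actb (cytoplasmic beta-actin, 16.43, 16.43, 16.43 and 16.43), on the log2 scale. The gene lies on the plus strand of chromosome 2 at 26580014-26593120 in mm10 and has 3 annotated start sites in RefSeq (GRCm38.p6). It is also the host of the endothelial microRNA miR-126, carried in an intron. The 250 bases before each start are shown because this is the leading gene of the ranking, together with the starts of Cldn5 and Kdr, the defining markers present in the promoter table. Capitals mark AGGAAG or its reverse complement CTTCCT, a core form of the sites bound by ETS factors.
Egfl7, chr2:26580833-26581082, plus strand: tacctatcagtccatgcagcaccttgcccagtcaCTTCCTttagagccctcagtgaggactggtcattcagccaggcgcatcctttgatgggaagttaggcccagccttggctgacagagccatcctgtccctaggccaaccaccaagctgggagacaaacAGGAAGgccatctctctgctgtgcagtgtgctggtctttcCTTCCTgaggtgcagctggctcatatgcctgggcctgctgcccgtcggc
Egfl7, chr2:26583615-26583864, plus strand: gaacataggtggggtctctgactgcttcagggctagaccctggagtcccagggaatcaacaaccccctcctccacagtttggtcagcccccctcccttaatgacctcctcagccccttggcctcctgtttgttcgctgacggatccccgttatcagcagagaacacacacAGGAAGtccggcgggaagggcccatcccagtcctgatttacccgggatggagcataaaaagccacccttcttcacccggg
Egfl7, chr2:26586386-26586635, plus strand: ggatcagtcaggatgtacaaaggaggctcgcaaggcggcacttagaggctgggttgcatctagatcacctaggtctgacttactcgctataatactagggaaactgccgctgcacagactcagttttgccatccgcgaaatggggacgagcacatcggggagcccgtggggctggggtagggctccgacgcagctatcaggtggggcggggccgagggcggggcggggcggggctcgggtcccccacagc
Cldn5, chr16:18776597-18776846, plus strand: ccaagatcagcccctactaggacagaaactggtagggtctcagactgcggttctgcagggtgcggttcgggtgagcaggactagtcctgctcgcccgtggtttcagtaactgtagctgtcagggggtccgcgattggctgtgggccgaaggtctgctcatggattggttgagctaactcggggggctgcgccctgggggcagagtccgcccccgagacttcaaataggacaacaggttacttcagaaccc
Kdr, chr5:75978456-75978705, minus strand: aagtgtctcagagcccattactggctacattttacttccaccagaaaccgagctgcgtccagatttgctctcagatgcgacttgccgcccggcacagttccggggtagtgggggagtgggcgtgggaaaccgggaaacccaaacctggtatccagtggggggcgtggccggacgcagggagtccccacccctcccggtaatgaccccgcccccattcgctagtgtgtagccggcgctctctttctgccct
The letters AGGAAG or CTTCCT occurred 3 times before the first Egfl7 start, once before the next and in none of the windows of the third start, Cldn5 and Kdr. A match describes letters only and shows no binding. Other forms of ETS sites were not searched for, so a window without a match may still hold one. Among RefSeq windows of this length, 59.1% of 22 windows belonging to 17 genes of the pan-endothelial list held the motif on either strand, against 29.5% of all 32851 windows. The share was 27.7% of 1198 windows for the 1000 most abundant protein-coding genes, and 10 of 50 windows held the motif for the 50 most abundant. A SOX motif, ACAAT or its reverse complement ATTGT, was counted in the same windows. It occurred in 31.8% of the 22 pan-endothelial windows against 27.7% of all windows. The SOX share was 18.9% for the 1000 most abundant genes, and 13 of 50 windows for the 50 most abundant. Alternative starts of a gene share sequence and are not independent. The mature miR-126a-3p, whose seed (bases 2 to 8, in capitals) is shown as the best known product of the Egfl7 locus, lies at chr2:26591402-26591423 on the plus strand.
mmu-miR-126a-3p: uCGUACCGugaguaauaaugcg
The assay does not measure mature microRNAs. The rows of Mir126a and Mir126b, annotated on opposite strands of the same stretch, held identical values in every library (0, 6.74, 0 and 6.52), so they could not be told apart and give no level of either.

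Cytoskeleton, matrix and chaperone genes shared the top of the ranking with endothelial genes. After Egfl7 and Actb came Sparc, a collagen-binding matrix protein, at 16.18, 15.88, 16.02 and 15.88 (15.99 ± 0.15). Fkbp1a, the immunophilin FKBP12, which binds type I receptors of the TGF-beta family, followed at 16.02, 15.56, 15.88 and 16.18 (15.91 ± 0.26). Hdac7, a class IIa histone deacetylase required for vessel integrity, came at rank 5, at 15.44, 15.44, 16.18 and 16.02 (15.77 ± 0.39). It was higher in replicates 3 and 4 than in 1 and 2. The next places went to Plec, a cytoskeletal linker (15.29 ± 0.39), Serpinh1, the collagen chaperone HSP47 (15.18 ± 0.15), and App, the amyloid precursor protein (15.16 ± 0.37). Foxp1 (14.999 ± 0.32) ranked 11, and Map4k4 (14.90 ± 0.26), a kinase that acts on cell motility, stood directly after Pecam1.

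Aqp1, the water channel of lung microvessels, stood at 14.56, 14.86, 15.13 and 14.89 (14.86 ± 0.23), highest in replicate 3. Acvrl1, the BMP9 and BMP10 receptor ALK1, followed at 14.93, 14.66, 14.93 and 14.82 (14.84 ± 0.13). Ptrf, now named Cavin1, a coat protein of caveolae, reached 14.62, 14.63, 14.82 and 14.79 (14.71 ± 0.10) with little spread. Cd93, a C-type lectin receptor of endothelial cells, reached 14.40, 14.62, 14.74 and 14.47 (14.56 ± 0.15). The remaining genes of the first 30 included Nfib, Nrep, Ly6e, genes of RNA binding and protein modification (Sumo3, Hnrnpk, Serbp1), Hsp90ab1, Eef2, and 5 rows whose values cannot be assigned to 1 gene. These were Hba-a1 and Hba-a2 (equal in every library), the histone genes Hist1h2ao and Hist1h2ap (within 0.014 of each other), and Wdr89, within 0.018 of a pseudogene of the ribosomal gene Rplp2.

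Neighbouring ranks were mostly not resolved. Of the 29 neighbouring pairs among the first 30, 2 had ranges that did not overlap, those between Egfl7 and Actb and between Actb and Sparc. The 10, 50 and 1000 most abundant genes held 7.23% ± 0.19, 16.5% ± 0.24 and 60.7% ± 0.09 of the summed linear value of the protein-coding genes. These shares are nearly fixed by the normalization and describe the common distribution. Outside the protein-coding genes, the nuclear RNA Malat1 stood at 15.65 ± 0.10, the imprinted H19 at 13.15 ± 0.53 and the Foxf1 neighbour Fendrr at 11.90 ± 0.44.

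**Figure D2:**
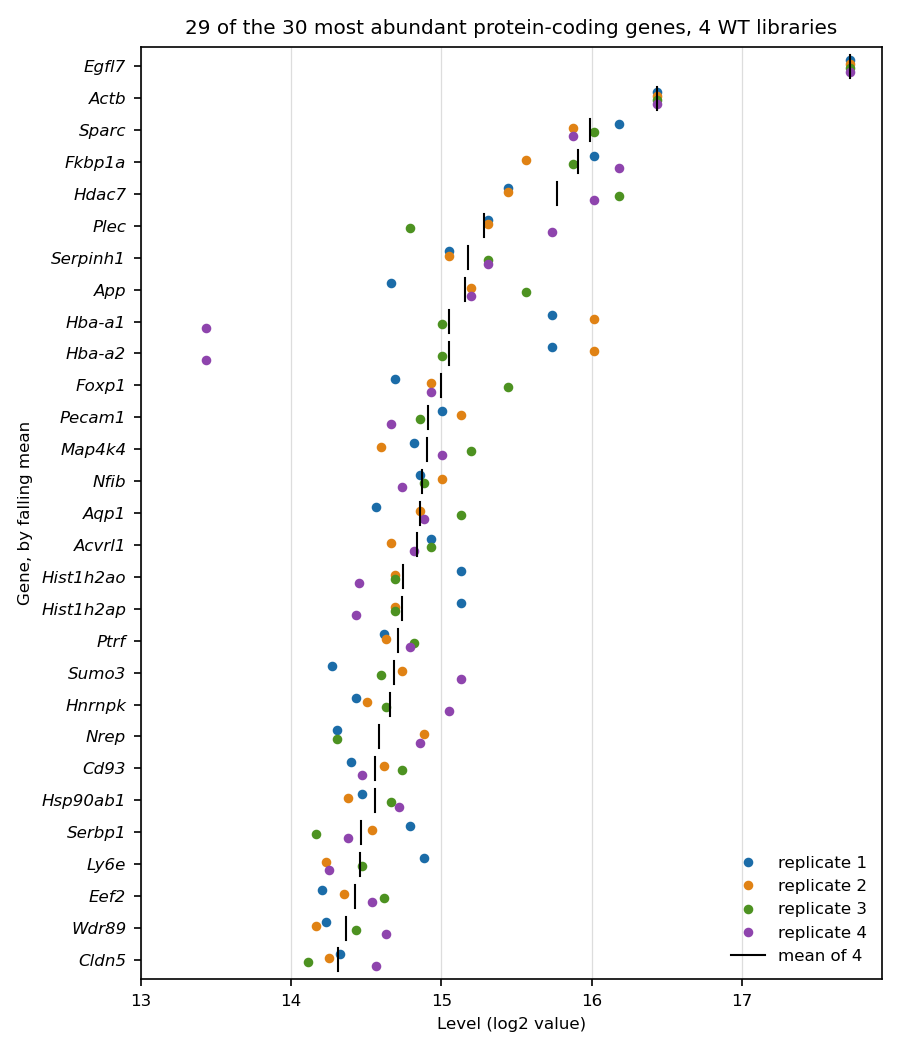
Level (log2 value, horizontal axis) of 29 of the 30 most abundant protein-coding genes in each of the 4 WT libraries (coloured points, with the mean as a bar), ordered by mean. Egfl7 and Actb stand clear of the rest, most other neighbours overlap, and the 2 alpha-globin genes are lowest in replicate 4.

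The pan-endothelial list held 30 genes and all 30 were above 0 in all 4 libraries. Of these, 24 ranked in the top 1000 and 5 in the top 50, and the median was 12.38, against 2.98 for all protein-coding genes. After Egfl7, Pecam1 and Cldn5 came Cd34, a sialomucin (14.13, 13.88, 13.89 and 13.96), and Rasip1, which organises endothelial junctions and lumens (13.86, 13.69, 13.91 and 14.15). Eng, the co-receptor endoglin, was close to them at 13.88, 13.72, 13.72 and 14.11. Esam and Icam2, adhesion molecules of endothelial cells, were at 13.68 ± 0.21 and 12.58 ± 0.36, and Ptprb, the phosphatase VE-PTP, at 12.98 ± 0.12. Several well known markers were lower. Nos3, endothelial nitric oxide synthase, was at 9.37, 9.32, 8.90 and 9.91, at rank 2623. The lowest member was Sox18, at 3.59, 6.51, 5.91 and 5.67 (5.42 ± 1.27), far below its relative Sox17. Nos3 was below Cdh5 in all 4 libraries, as were Palmd (9.68 ± 0.50) and Ecscr (9.21 ± 0.34).

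General capillary markers were abundant. Of 15, 13 were above 0 in all 4 libraries and 8 ranked in the top 1000, with a median of 11.26. The highest were Cd93 and Cd36, the fatty acid transporter, which stood at 13.92, 14.33, 14.01 and 13.71. Plvap, which forms the diaphragms of endothelial pores, stood at 13.21, 12.95, 12.79 and 12.63, and Gpihbp1, which anchors lipoprotein lipase on capillaries, at 12.17, 11.97, 12.25 and 11.97. Kit, the receptor for stem cell factor, was at 11.37 ± 0.28 and Aplnr, the apelin receptor, at 10.79 ± 0.15. Both varied little between libraries. Lpl (9.42 ± 0.95) and Ntrk2 (7.83 ± 1.33) were lower, and Glp1r, the lowest, was listed at 0 in 3 libraries.

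Aerocyte markers had a median of 10.92, with 16 of 17 above 0 in all 4 libraries and 9 in the top 1000. Sgk1, a serum-regulated kinase, led the list at 12.99, 12.83, 14.33 and 13.02, followed by Tbx3, a T-box factor (12.86, 13.11, 13.11 and 12.22). Emp2, a tetraspan membrane protein, was at 11.85 ± 0.18, and Prx, periaxin, at 11.82 ± 0.54. Ednrb, the endothelin B receptor, was at 10.48, 11.12, 10.96 and 11.21, and Apln, the apelin ligand, at 10.12, 9.96, 10.55 and 11.23. Apln and Aplnr overlapped in range, with Aplnr higher in 3 of 4 libraries. Car4, the carbonic anhydrase of the capillary surface, varied more, at 8.03, 10.26, 9.26 and 8.38, and lay below Plvap in every library. Emp2 is also in the type 1 epithelial list used below, and Kdr in the pan-endothelial list. In a bulk sample, fewer cells of a type and less RNA per cell cannot be told apart, so these medians rank transcripts, not cells.

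Arterial genes were present in every library, with 17 of 17 above 0 in all 4 and a median of 10.55. Eln, elastin, was highest at 14.45, 14.45, 14.13 and 13.65, then Sox17, a SOXF factor of arterial fate (13.29, 13.19, 13.61 and 13.13), and the chemokine gene Cxcl12 (12.18, 12.94, 13.02 and 12.15), which is also on the general capillary list. Eln and Mgp (11.05 ± 0.63) are made by smooth muscle cells and fibroblasts as well. Gja4 (connexin 37) was at 11.53, 11.60, 11.26 and 11.40 and Gja5 (connexin 40), which is more restricted to arteries, at 8.89, 8.88, 8.84 and 9.001. Gja4 exceeded Gja5 in every library, by 2.54 ± 0.16, and both varied little. The Notch ligand Dll4 was at 9.02 ± 0.57 and the Notch target Hey1 at 10.43 ± 0.70.

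Venous genes were lower, with 10 of 14 above 0 in all 4 libraries and a median of 7.37. Ephb4, the venous partner of ephrin-B2, led at 11.14, 10.82, 11.30 and 11.74, and Nr2f2, the venous factor COUP-TFII, followed at 10.47, 11.06, 10.17 and 10.72. Ephb4 was above Efnb2, its arterial ligand, in every library, though their ranges overlapped (11.06, 10.51, 10.70 and 9.94 for Efnb2). Vwf stood at 10.01 ± 0.24. Ackr1 and Selp, markers of postcapillary venules, were at 0, 0, 0 and 6.72 and 3.01, 0, 3.08 and 0, so each was listed at 0 in some libraries.

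Lymphatic genes were lowest of the endothelial lists, with 5 of 11 above 0 in all 4 libraries and a median of 3.82. Prox1, the factor that sets lymphatic identity, was listed at 0 in all 4 libraries, as was Reln. Lyve1, often used as a lymphatic marker, stood at 11.50, 11.45, 11.83 and 11.94, at rank 508. Flt4, the VEGF-C receptor, stood at 8.65, 7.59, 7.17 and 8.28, and Pdpn at 3.59, 6.10, 5.40 and 8.31. The high member of the list was thus not accompanied by Prox1. At an unknown depth, a 0 can also mean that no read of a transcript was drawn.

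Genes of the cell cycle were well represented. Of 29, 28 were above 0 in all 4 libraries, 10 were in the top 1000, and the median was 10.14. Among the cyclins that drive entry into the cycle, Ccnd1 was at 13.52, 13.42, 13.51 and 13.98, with Ccnd3 at 12.89 ± 0.55 and Ccnd2 at 11.86 ± 0.17. Top2a, the topoisomerase of replicating chromosomes, was at 11.86, 12.03, 12.19 and 11.87, Birc5 at 11.38 ± 0.28 and Mki67 at 10.10 ± 0.49. The mitotic cyclin Ccnb1 was low (3.59, 6.70, 5.97 and 7.41). Cdkn2a, which arrests the cycle, was listed at 0 in all 4, while Cdkn1a was at 10.39 ± 0.90. Tubb5 and Tuba1b, which head this list, are tubulins of all cells.

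**Figure D3:**
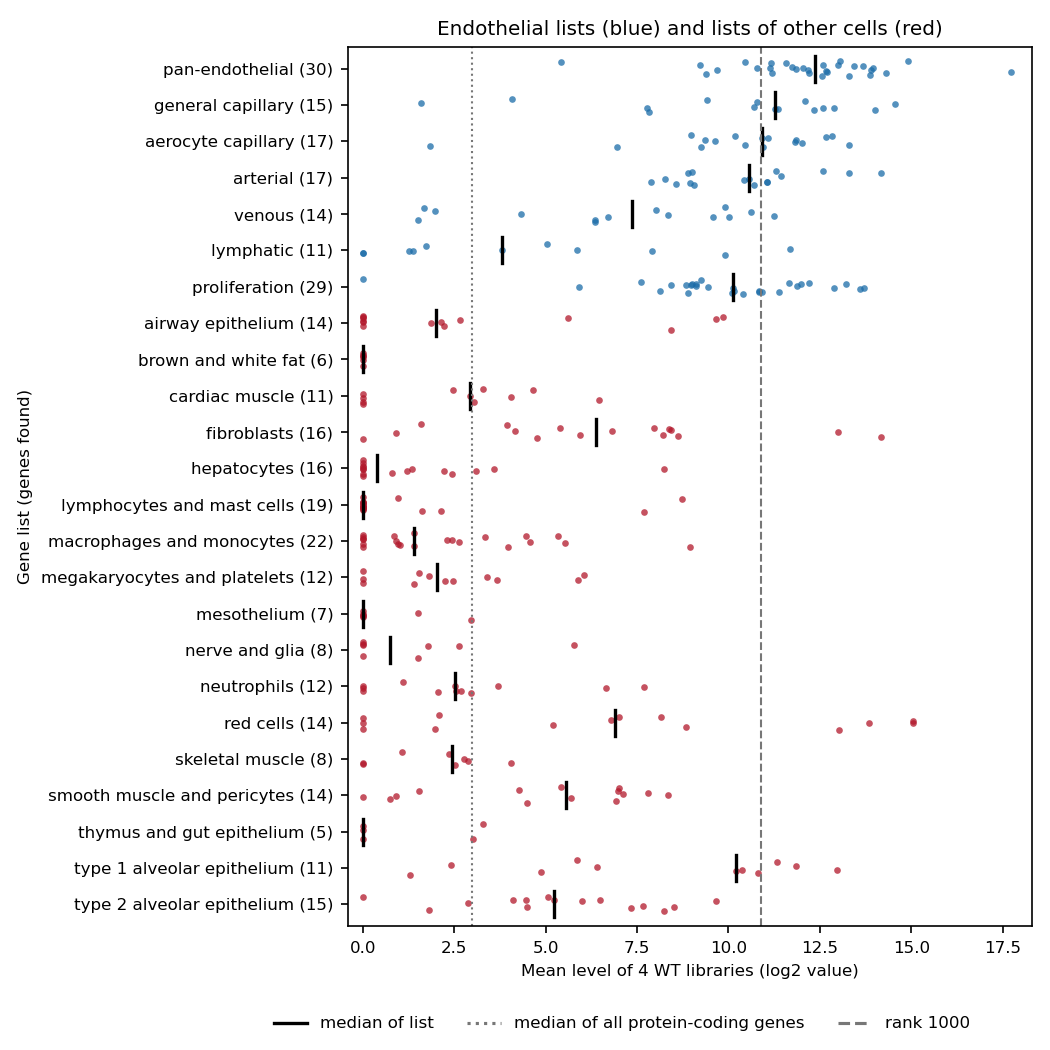
Mean level over the 4 WT libraries (log2 value, horizontal axis) of each gene of the endothelial and proliferation lists (blue) and of lists for other cell types (red), with the number of genes found in brackets; black bars are list medians, the dotted line the median of all protein-coding genes (2.98) and the dashed line rank 1000 (10.89). The pan-endothelial median of 12.38 lies right of the dashed line, the lymphatic median of 3.82 near the dotted one, and the fat and mesothelial medians at 0.

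Of 160 receptor genes in 10 families, 109 were above 0 in all 4 libraries, 30 were in the top 1000 and 9 were at 0 throughout, with a median of 7.72. Receptors of the BMP and TGF-beta families included the most abundant receptor of all, Acvrl1, and its co-receptor Eng, which was below it in every library by 0.98 ± 0.21. Their type II partner Bmpr2 was at 11.51, 11.62, 11.33 and 11.62, a further 2.34 below Eng. Tgfbr2, the TGF-beta type II receptor, was at 8.58, 10.46, 10.43 and 10.01, and the ubiquitous type I receptor Tgfbr1 at 7.60, 7.21, 6.81 and 7.97. Acvrl1 was thus 7.44 ± 0.53 above Tgfbr1 on the log2 scale. Bmpr1a, encoding ALK3, was listed at 0 in every library. Of the inhibitory and receptor SMADs, Smad5 (12.14 ± 0.32), Smad7 (11.07 ± 0.33) and Smad6 (10.76 ± 0.34) had higher means than Smad1 (8.19 ± 1.05), and the BMP targets Id1 (12.40, 12.36, 12.41 and 12.09) and Id3 (11.85, 11.79, 12.39 and 12.13) were among the higher genes.

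By mean level the VEGF receptors followed the order Kdr, Nrp1, Flt1, Nrp2 (9.91, 10.63, 9.60 and 9.48) and Flt4. Neighbours in this order did not overlap, except Flt1 and Nrp2, of which Nrp2 was the higher in replicate 2. The co-receptor Nrp1 was at 11.73, 12.22, 12.28 and 11.83, and Flt1, the high-affinity decoy receptor for VEGF-A, at 11.08, 10.58, 11.61 and 11.32. Kdr exceeded Flt1 in every library without overlap, by 1.52 ± 0.41, and exceeded Flt4 by 4.75 ± 0.90. Nrp1 exceeded Nrp2 by 2.11 ± 0.49, also without overlap. Among ligands, Vegfa was at 12.64, 13.62, 12.61 and 12.96, above all 4 values of Vegfc (9.27, 9.74, 7.72 and 6.63), while Pgf was listed at 0 in 3 libraries. Vegfa, which type 1 epithelium of the neonatal lung makes in large amounts, is also on the type 1 epithelial list used below.

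The angiopoietin receptor Tek (TIE2) was at 12.54, 12.09, 12.22 and 11.97, between the phosphatase gene Ptprb (13.11, 13.02, 12.82 and 12.98) and the orphan receptor gene Tie1 (11.52, 11.20, 11.34 and 10.60). The 3 did not overlap. Of their ligands, Angpt2 was at 5.74, 4.14, 5.71 and 0 and Angpt1 at 0, 6.82, 4.82 and 7.05, each listed at 0 in 1 library.

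Among Notch receptors, Notch1 (11.53, 10.80, 11.06 and 10.95) and Notch4 (11.01, 10.37, 10.17 and 10.83) overlapped in range, and both were above Notch3 (5.65, 4.64, 6.72 and 5.75), the mural cell receptor, in every library. Notch2 was at 0 in 2 libraries. The receptor tyrosine kinases outside these families were led by Fgfr3 (11.93, 10.90, 12.27 and 12.73), Kit and Ephb4, then the insulin-like growth factor receptor Igf1r (10.02 ± 0.29). Egfr and Pdgfra, receptors of epithelial and mesenchymal cells, were above 0 in replicate 1 only (3.01 and 3.59), and Erbb3 was at 0 in all 4.

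Of the G protein-coupled receptors, Adgre5 (CD97) was highest at 13.72, 13.83, 13.71 and 14.17, and the adhesion receptor Adgrf5 (GPR116) was at 12.66, 12.72, 12.61 and 12.22. The adrenomedullin receptor is a complex of Calcrl with a RAMP protein. Ramp2 was at 13.61, 13.56, 12.96 and 13.64 and Calcrl at 11.96, 12.12, 11.30 and 11.61, so that Ramp2 was higher by 1.69 ± 0.25. Ramp3 was 2.76 ± 0.54 below Ramp2, and Ramp1 was at 0 in 3 libraries. S1pr1, the sphingosine-1-phosphate receptor that stabilises junctions, was at 11.42, 11.48, 11.86 and 11.55, whereas S1pr2 (6.51, 0, 5.10 and 3.72) and S1pr3 (3.01, 3.16, 0 and 0) were listed at 0 in 1 and 2 libraries. The chemokine scavenger Ackr3 was at 11.51 ± 0.37 and Cxcr4, the signalling receptor for CXCL12, at 9.05 ± 0.94. In the endothelin system Ednrb was high, Ednra was at 4.21, 0, 0 and 3.88, and the ligand gene Edn1 and the converting enzyme gene Ece1 were at 10.71 ± 0.38 and 12.89 ± 0.19.

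Itga6, the alpha-6 chain of laminin receptors, was the highest integrin at 14.10, 13.84, 14.08 and 14.08, and Itgb1, the common beta-1 chain, was lower by 0.83 ± 0.12 in all 4 libraries. Itga3 (10.54 ± 0.58) and Itga1 (9.06 ± 0.28) followed. The fibronectin receptor chain Itga5 (6.15 ± 0.27) and the alpha-v chain Itgav (6.49 ± 0.76) were low, and Itga7 was at 0. Guidance receptors were led by Plxnd1 (11.25 ± 0.23), the semaphorin 3E receptor, Unc5b (11.07 ± 0.42) and Robo4 (10.45 ± 0.47). Scavenger and coagulation receptors, apart from Cd93 and Cd36, included Clec14a (12.03 ± 0.28), thrombomodulin Thbd (11.32 ± 0.35) and Scarb1 (10.58 ± 0.30). Of 21 cytokine, death and pattern receptors, Il4ra (11.10 ± 0.16) alone reached the top 1000, although the family median of 8.28 lay above the 7.72 of all 160 receptors.

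Of 32 vasoactive, coagulation and transport genes, 26 were above 0 in all 4 libraries and 9 in the top 1000, with a median of 9.15. Ace, the angiotensin-converting enzyme for which lung capillaries are known, was at 13.64, 13.91, 13.43 and 13.69. Cav1 was at 12.77, 13.45, 13.24 and 12.78 and Cav2 at 11.40, 11.39, 10.74 and 11.34, with no overlap. The other caveolar genes ranged from Prkcdbp at 7.70 ± 0.80 to Ptrf, and 6 of 8 were in the top 1000. Mfsd2a, a lipid transporter of brain endothelium, and Ptgs2 were at 0 in all 4 libraries.

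**Figure D4:**
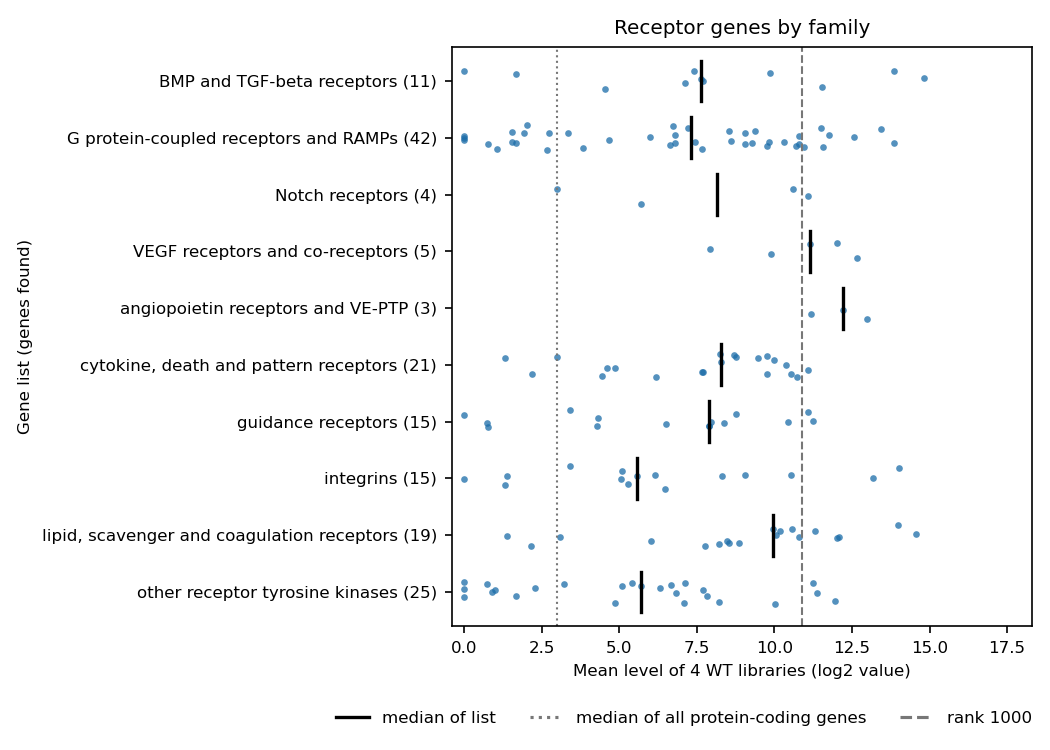
Mean level over the 4 WT libraries (log2 value, horizontal axis) of receptor genes by family, with the number of genes found in brackets; black bars are family medians, the dotted line the median of all protein-coding genes (2.98) and the dashed line rank 1000 (10.89). The 3 genes of the angiopoietin receptor group all lie right of the dashed line, whereas 1 of the 21 cytokine receptors does.

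Of 212 transcription factor and co-factor genes, 141 were above 0 in all 4 libraries, 38 ranked in the top 1000, 3 in the top 50 and 24 were at 0 throughout, with a median of 7.89. The 3 in the top 50 were Foxp1 (14.69, 14.93, 15.44 and 14.93), a forkhead repressor, Nfib (14.86, 15.003, 14.89 and 14.74), a nuclear factor I protein needed for lung maturation, and the E protein gene Tcf4 (13.79, 13.96, 14.40 and 14.03). They were followed by Ctnnb1, the co-activator beta-catenin, which also serves in junctions (13.73 ± 0.29), and Epas1, encoding HIF-2alpha (13.51, 13.30, 13.98 and 13.59).

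Epas1 was above Hif1a in every library without overlap, by 4.30 ± 0.80. Among ETS factors, Ets1 (13.25, 13.80, 13.25 and 12.89) and Erg (12.998, 12.79, 13.06 and 11.94) led with overlapping ranges, and Ets2 (11.91 ± 0.35) and Elk3 (11.76 ± 0.17) came next. Fli1, a relative of Erg, was below it in every library, by 2.90 ± 1.12. Etv2, the factor of early endothelial specification, was at 0 in 3 libraries, and the epithelial factors Elf3, Elf5 and Spdef were at 0 in all 4.

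The SOXF genes differed widely. Sox17 was above Sox7 (7.78, 7.74, 8.33 and 7.40) by 5.49 ± 0.18 and above Sox18 by 7.88 ± 1.28, without overlap. The SOXC genes Sox4 (12.92, 13.17, 12.86 and 13.09) and Sox11 (12.31, 12.09, 11.81 and 12.30) are known from immature tissues. Sox4 overlapped with Sox17 in range and Sox11 lay below both. Among forkhead genes, Foxf1, the lung capillary factor whose loss in humans causes alveolar capillary dysplasia, was at 11.87, 12.28, 12.18 and 12.46, above Foxo1 (9.83, 9.09, 10.43 and 9.42) in every library. Foxc2 and the airway factors Foxj1 and Foxa1 were at 0.

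Klf4 (12.49, 12.38, 13.22 and 12.14) exceeded Klf2 (11.16, 11.26, 10.90 and 10.94), the other flow-responsive KLF gene, by 1.49 ± 0.56 with no overlap. Of the genes around the hematopoietic and endothelial LMO2 complex, Lmo2 was at 11.91 ± 0.52, Gata2 at 9.81 ± 0.76, Tal1 at 9.40 ± 0.45 and Lyl1 at 8.47 ± 0.97. Gata1, which is specific to the blood lineage, was at 0. Tbx3 exceeded Tbx2 by 3.46 ± 0.91. Hoxa5, the HOX gene of the developing lung, was the highest of the HOX genes listed, at 11.16, 11.75, 11.48 and 11.35, and 7 HOX genes were at 0 in every library. Of the Hippo co-activators deleted elsewhere in the series, Wwtr1 (TAZ, 12.01, 11.56, 11.84 and 11.85) exceeded Yap1 (9.88, 10.02, 9.81 and 9.46) by 2.02 ± 0.36. Their partner Tead2 was at 10.12 ± 0.75 and Tead1 at 9.62 ± 0.65. Myc and Mycn were listed at 0 in all 4 libraries, as was Pparg.

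**Figure D5:**
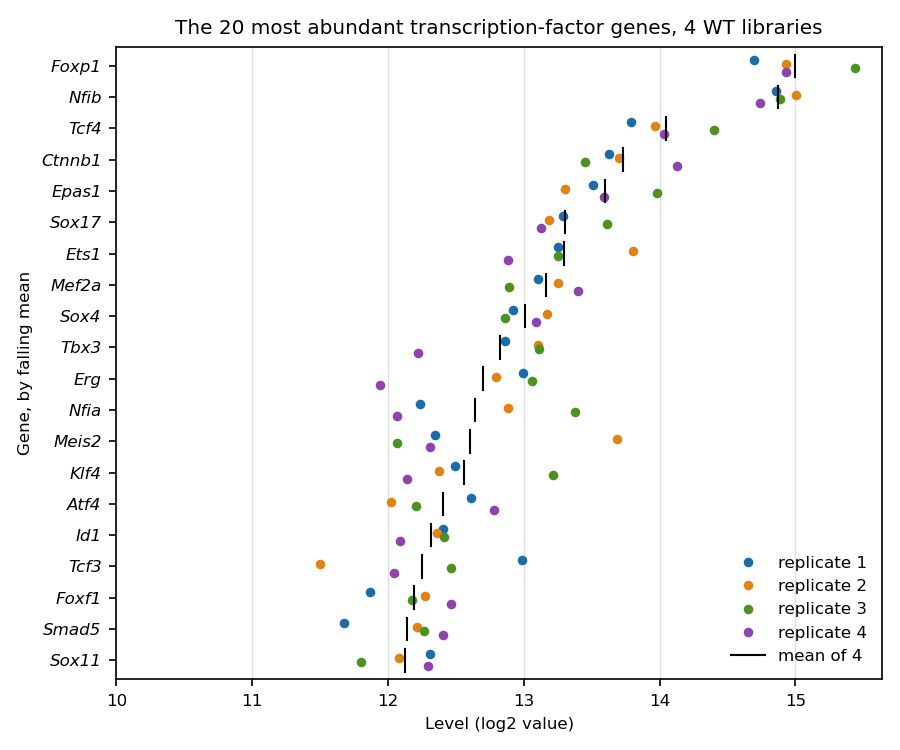
Level (log2 value, horizontal axis) of the 20 most abundant transcription factor and co-factor genes in each of the 4 WT libraries (coloured points, with the mean as a bar), ordered by mean. Foxp1 and Nfib lead, replicate 3 is highest for Foxp1, and most neighbours overlap.

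The matrix, caveolar, housekeeping, immediate-early, imprinted and class I presentation lists together held 301 genes. Of these, 128 ranked in the top 1000 and 12 in the top 50. Basement membrane and matrix genes had 30 of 32 members above 0 in all 4 libraries and a median of 10.35. The type IV collagen genes Col4a1 (14.17, 14.21, 14.15 and 13.68) and Col4a2 (13.02, 12.99, 12.92 and 12.94) lie head to head and share a promoter region, and Col4a1 was higher by 1.08 ± 0.23 without overlap. The insulin-like growth factor binding protein gene Igfbp4 was at 13.47 ± 0.12, and the perlecan gene Hspg2 at 11.54 ± 0.38. Cytoskeletal genes had a median of 12.18 with 21 of 29 in the top 1000, chaperones 10.999 with 10 of 20, and translation factors 11.61 with 15 of 22.

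The 80 cytosolic ribosomal protein genes were above 0 in all 4 libraries, with a median of 10.55, from Rpl29 (7.26 ± 1.54) to Rpl22 (14.10 ± 0.23). Glycolytic genes had a median of 6.54, below that of the ribosomal list but above the 2.98 of all protein-coding genes. Of 19, 12 were above 0 in all 4 libraries, against 40.7% of all protein-coding genes. Ldha was highest at 10.58, 11.72, 11.64 and 11.75. Gapdh stood at 6.49, 6.28, 6.15 and 5.89, at rank 7411, and Eno1 at 6.49, 6.91, 5.91 and 6.87. Both genes, like many ribosomal protein genes, have numerous near-identical pseudogene copies in the genome, so their counted reads are uncertain, and the part of such copies in these levels was not tested. The glucose transporter gene Slc2a1 was at 6.88, 4.64, 0 and 0. Nuclear-encoded respiratory chain genes had a median of 10.22 with 33 of 33 above 0 in all 4 libraries. Immediate-early genes, which respond within minutes to handling of cells, had a median of 10.06, with Jun at 12.89, 12.70, 13.14 and 12.74, Egr1 at 11.50, 10.93, 11.75 and 11.46 and Fos at 9.65, 9.60, 10.68 and 9.22. Their part in other levels was not tested. Imprinted growth genes included, besides H19, Gnas (14.07 ± 0.31), Mest (12.77 ± 0.54) and Igf2 (10.01 ± 0.57).

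Traces of other cells were present, and by summed level most of their lists lay well below the pan-endothelial list. That list is longer, with 30 genes, and its sum rests in large part on Egfl7, at 17.72. By median, the type 1 epithelial list (10.19) was near the arterial list (10.55). Of 208 genes in 17 lists for other cell types, 56 were above 0 in all 4 libraries and 70 were at 0 throughout, with a median of 2.28. Over all protein-coding genes, 40.7% were above 0 in all 4 libraries and 36.3% at 0 throughout, with a median of 2.98. The count at 0 is therefore not particular to these lists. Red cell genes were the largest of the 17 by summed level, a rank that in replicate 4 rests on entering the shared alpha-globin values for both genes. Both alpha-globin rows, Hba-a1 and Hba-a2, stood at 15.74, 16.02, 15.003 and 13.44 in each case, and the beta-globin gene Hbb-bs at 14.72, 14.79, 13.64 and 12.26. Replicate 4 was lowest in each, and also in Alas2, the heme synthesis enzyme of erythroid cells (10.29, 10.40, 10.23 and 4.40). The summed linear value of the 14 red cell genes, on a log2 scale, was 14.88 to 17.45, which is 1.26 to 3.82 below that of the pan-endothelial list (18.69 to 18.72). With the alpha-globin values entered once it was 14.23 to 16.78, and in replicate 4 the 14.23 lay below fibroblasts (14.51) and type 1 epithelium (14.48). Of the embryonic globins, Hbb-bh1 and Hba-x were at 0 in all 4 libraries and Hbb-y was at 0, 5.26, 0 and 3.04. Of 14 genes, 8 were above 0 in all 4 libraries and 3 at 0.

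Type 1 alveolar epithelial genes had a median of 10.19, the highest of the 17 lists, with 8 of 11 above 0 in all 4 libraries and none at 0 throughout. Library by library the list's median was 10.53, 10.46, 5.88 and 10.22, and in replicate 3 it was below those of red cells (7.12), fibroblasts and smooth muscle (6.82 each) and type 2 epithelium (6.69). Vegfa and Emp2 head it and are not particular to epithelium. Of the defining markers, Ager stood at 11.67, 11.65, 5.88 and 11.58, low in replicate 3, and Hopx at 11.01, 11.28, 9.61 and 11.39. Rtkn2 stood at 4.91, 7.06, 0 and 7.58, also lowest in replicate 3, and Aqp5 at 7.87, 6.34, 5.20 and 6.17. Pdpn, another member of the list, stood at the values given above. Akap5 (11.09, 11.24, 11.43 and 11.50) and Cldn18 (10.53, 10.46, 10.28 and 10.22) varied little. The summed level of the list was 13.86 to 14.66, or 4.05 to 4.83 below the endothelial list. Which cells these transcripts came from was not tested.

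Type 2 epithelial genes had a median of 5.23, with 8 of 15 above 0 in all 4 libraries. The surfactant gene Sftpc stood at 10.75, 10.01, 8.68 and 9.22, below Cdh5 in every library by 3.39 ± 1.10. Sftpb was at 0, 6.51, 6.30 and 7.46, Sftpa1 at 9.38, 8.85, 7.96 and 7.89 and Lamp3 at 3.01, 4.25, 0 and 0. Napsa was at 0. The summed level of the type 2 list was 10.95 to 11.94. Airway genes, with 3 of 14 above 0 in all 4 libraries and a summed level of 10.69 to 12.29, were led by the club cell secretoglobins Scgb1a1 (11.32, 10.05, 8.80 and 9.23) and Scgb3a2 (9.67 ± 0.90), with Tppp3, a tubulin-binding protein of ciliated cells, as the third (9.06, 9.19, 7.93 and 7.53). Foxj1 and Krt5, markers of ciliated and basal cells, were at 0 in all 4 libraries, with Trp63, Ccdc113, Muc5b and Calca, and Dynlrb2, a dynein light chain of cilia, was above 0 in replicate 3 only (7.53).

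Fibroblast genes had a median of 6.38, with 11 of 16 above 0 in all 4 and a summed level of 14.51 to 15.08. Eln and Fn1 (12.996 ± 0.52) head this list and are also on endothelial or matrix lists. Col1a1 stood at 8.34, 8.77, 8.60 and 8.73 and Col1a2 at 8.48, 8.73, 9.42 and 7.06. Col3a1 was at 7.97 ± 0.48, Pdgfra was at 0 in 3 libraries and Lum at 0 in 4. Col1a1 was 4.44 ± 0.35 below Cdh5. Smooth muscle and pericyte genes had a median of 5.55 and a summed level of 9.94 to 11.03, with Acta2 at 9.37, 8.65, 8.13 and 7.23, Myh11 at 7.81 ± 0.77, Pdgfrb at 7.13 ± 0.97 and Tagln at 5.41 ± 1.44.

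Immune cell lists had medians of 0 to 2.54. In the macrophage and monocyte list, with a median of 1.40 and a summed level of 9.52 to 10.69, the defining Mrc1 and Adgre1 were at 0 in all 4 libraries, Cd68 stood at 0, 6.14, 3.66 and 0 and Csf1r at 0, 3.88, 5.32 and 0. C1qc, Ccr2, Marco and Siglecf were also at 0. Plac8, the highest member at 8.96 ± 0.61, is on the arterial list too. Lgals3, encoding galectin-3, was the other member above 0 in all 4 libraries (3.59, 7.07, 3.66 and 7.05). The protease gene Ctss was at 7.40, 6.34, 8.36 and 0, the lysozyme gene Lyz2 at 6.36, 0, 6.11 and 5.39, Ly6c2 at 6.61, 5.18, 6.47 and 0 and the adaptor gene Tyrobp at 4.21, 6.37, 5.32 and 0, each above 0 in 3 libraries. Of 19 lymphocyte and mast cell genes, 14 were at 0, among them the defining Cd3e, Cd79a, Ms4a1 and Nkg7, and the pan-leukocyte gene Ptprc was at 0 in 3 libraries. Rora (8.74 ± 0.69), which is expressed in many tissues, leads this list, followed by the GATA factor Gata3, known from T cells and other tissues (8.47, 8.48, 6.74 and 7.11), and these were its members above 0 in all 4. Among neutrophil genes, with a summed level of 6.61 to 11.70, S100a8 stood at 7.72, 6.74, 10.07 and 6.19 and S100a9 at 8.55, 7.14, 10.98 and 0, highest in replicate 3, whereas Mpo, Elane and Mmp9 were at 0. Platelet genes were led by Pf4 (6.59, 6.66, 6.59 and 4.40).

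Fat, mesothelial, cardiac, skeletal muscle, nerve, thymus, gut and liver lists had medians of 0 to 2.94. All 6 fat genes (Adipoq, Ucp1, Plin1, Cidec, Lep and Adig) were at 0. Ryr2 (6.45 ± 0.997) was highest of the cardiac list and Nppa was at 0. The other defining cardiac markers were above 0 in some libraries. Tnnt2 stood at 0, 9.92, 0 and 0, Myh6 at 7.80, 0, 5.40 and 0 and Actc1 at 7.11, 0, 0 and 5.02. The summed level of the cardiac list was 8.02 to 10.17. Trf (8.25 ± 0.25) was highest of the liver list, in which Alb stood at 0, 5.22, 4.66 and 4.46 and Ttr and 7 others were at 0. Apoa1 was above 0 in replicate 2 only (5.37) and Serpina1a in replicate 3 only (4.90). The summed level of the liver list was 8.06 to 9.88. The plot of lists by level shows these medians.

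A few genes of sizeable mean level differed greatly between the 4 libraries. Among 4898 protein-coding genes with a mean of at least 8, the median SD was 0.497, and the 10 largest SDs were 2.84 to 3.44. Prom1, a membrane protein of epithelial and progenitor cells, stood at 4.08, 11.89, 9.05 and 10.04, low in replicate 1. Rad51d, a recombination protein, was likewise low in replicate 1 only (4.496, 10.73, 10.65 and 11.34). Usp33, a deubiquitinase, was low in replicate 4 only (10.23, 9.67, 9.90 and 3.72). Slc2a9, a urate transporter, was low in replicate 3 (10.88, 8.97, 4.90 and 11.56), and Bcor, a transcriptional corepressor, in replicate 1 (4.21, 10.15, 10.32 and 8.03). The others were Ddx3y, Alas2 and Ager, described above, and l7Rn6 (10.92, 10.54, 10.27 and 4.01) and Pla2g12a (9.66, 8.74, 9.997 and 3.88), both low in replicate 4. In 7 of the 10 genes 3 libraries lay within 2 of each other and 1 lay at least 3 below them.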

How the data were processed

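Endothelial cells sorted from lungs of wild-type mice at postnatal day 5 were profiled in 4 libraries. Per the labels' protocols, RNA was taken up in Trizol and 500 ng of total RNA went into Lexogen QuantSeq libraries. The submitters' processing notes name Bowtie2, edgeR and mm10 without roles or versions. The deposited values are on a log2 scale that the authors had normalized. From the values, this was quantile normalization: the first 5000 ranks differ by at most 0.168 between the WT libraries. They are not divided by gene length, since 379 to 521 genes per library, of very different lengths, share the lowest value above 0. Whole counts and depth are unknown. As a guide to precision, each library shows 15 to 20 different values above 0 up to level 5 and 636 to 765 up to level 10, so low levels rest on few reads.

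Groups and replicate numbers came from the sample titles. A block of 32 rows displaced by 1 row in 5 knockout libraries, and the exchanged rows Rn45s and Rn4.5s, were left out (34 rows), although the WT rows read correctly. Gene symbols were matched to GENCODE M21 (GRCm38) by name for 23376 rows and through RefSeq synonyms for 651, and 394 stayed unmatched. Genes were ranked by mean over 4 libraries with pandas 2.3.3 and numpy 2.4.6 in Python 3.11.15, with no filter, pseudocount or test. The ranking procedure was run on simulated libraries of 7866 genes, built from the WT means without the low levels. It recovered 46 of the 50 highest. Depth and spread were assumed in the simulation, so it cannot show how precise the real ranking is. Linear shares leave out Rn45s. Promoter and microRNA sequences are from RefSeq (GRCm38.p6).

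The 57 gene lists (1139 entries, 16 not found) and the members were chosen with earlier results of these data known. Named genes were drawn from the 4 defining markers, the 30 highest genes, the highest and lowest members of each list, defining and absent markers of other cells, and the 10 most variable genes at a mean of at least 8. A further 138 genes were named after their values were seen. Some genes under this rule are not reported here. The alternatives tried were other summaries of the 4 libraries, each library left out, division by length, other cutoffs and other detection rules. Genes encoded by mitochondrial DNA were among the entries not found and are not analysed here.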

Additional observations from a re-analysis of the deposited data

Results flagged for a closer look

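For 256 of the named genes whose 4 WT values differ, the gap between an extreme library and the nearest other was set against the whole range. In 32 of them 1 library stood apart by more than Dixon's critical value. Chance flags about 1 in 20 groups. The same rule flagged 563 (6.75%) of 8336 protein-coding genes above 0 in all 4 libraries, against 12.5% of the 256. The 256 were not limited to genes above 0 in all 4 libraries. A gene above 0 in 1 library meets the rule by construction, and some genes were named because they varied most. The number is therefore a description of the named genes, and an excess over others was not tested. Replicate 4 accounted for 14 of the 32.

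In 9 genes the only library above 0 stood apart from 3 at 0. These were Glp1r at 6.37, Ackr1 at 6.72 and Etv2 at 6.19, Dynlrb2 at 7.53, Ramp1 at 3.04, Egfr at 3.01, Pdgfra and Pgf at 3.59 each, and Ptprc at 3.90. The lowest value a library can hold above 0 is 3.01 to 3.16, so Ramp1 and Egfr sat at that level.

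Replicate 4 was low for Alas2 at 4.40 (the others 10.23 to 10.40) and for Ddx3y at 3.04, and high for the X-inactivation transcript Xist at 15.44. It was also low for Usp33 at 3.72, l7Rn6 at 4.01, the platelet gene Pf4 at 4.40, Gnas at 13.61, Col4a1 at 13.68 and Id1 at 12.09. The tight junction gene Ocln was at 0 in replicate 4, against 6.45 to 7.09 in the others. Ctnna1 was highest there, at 11.69, within a narrow range.

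Replicate 3 was low for Ager at 5.88 (the others 11.58 to 11.67), for Ramp2 at 12.96, Cav2 at 10.74 and Thbd at 10.80. It was high for Sgk1 at 14.33 (the others 12.83 to 13.02) and for Cdh5 at 13.45. Replicate 1 was low for Rad51d at 4.496 and Ldha at 10.58, and listed Alb and Sftpb at 0 while the other 3 libraries held 4.46 to 5.22 and 6.30 to 7.46. Replicate 2 was lowest for Itga6, at 13.84, and listed Lyz2 at 0, against 5.39 to 6.36 in the others.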

How the results depend on the processing

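The number of protein-coding genes counted as measured rested on the rule for detection. It was 8338 with a value above 0 in all 4 libraries, 13042 with a value above 0 in at least 1 library, and 6917 with a value above 5 in all 4. Leaving out each library in turn gave 8663 to 8742. Of the 50 most abundant genes, 47 to 49 stayed among the first 50 when a library was left out, 48 when ranked by the median, 49 by the linear mean, 47 among all genes and 50 with the displaced rows kept, but 27 when the log2 of the exonic length in kb was subtracted. The 24 endothelial markers of the top 1000 were 24 with each library left out, 20 within rank 500 and 26 within rank 2000. The share held by the first 50 was 16.5% to 16.7% with a library left out. Of the 56 lists with members in the table, 44 had a median above that of all protein-coding genes, 43 to 45 with a library left out, and 36 when lists and genes were both limited to those above 0 in all 4 libraries.

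With a library left out, list medians moved by more than their SD between libraries in 37 of 224 cases, at most from 3.82 to 2.38 (lymphatic, without replicate 3), and the forkhead median rose from 4.76 to 6.08 without replicate 4. Restricting lists to members above 0 in all 4 libraries moved 35 of 51 medians, all upward, for lymphocytes from 0 to 8.22. No paired analysis was possible because only 1 group is described. Depth is unknown and limits the levels under about 6, where a 0 may be a gene not sampled.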

Other observations

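Junction and barrier genes beyond the 4 defining markers were high as a group. Of 23, 19 were above 0 in all 4 WT libraries and 12 ranked in the top 1000, with a median of 11.44. Ctnnd1 (12.76, 12.64, 12.99 and 12.53) and Ctnna1 (11.57, 11.59, 11.59 and 11.69), which encode catenins of the cadherin complex, varied little between libraries. Jup, encoding plakoglobin, was higher in replicates 3 and 4 (12.45, 12.34, 13.20 and 13.15). Its SD of 0.455, like that of the tight junction adaptor Tjp1 (12.46 ± 0.38), was above the median of 0.274 for genes at levels of 12 to 14. F11r, the adhesion molecule JAM-A, was at 12.26 ± 0.12 and its relative Jam3 at 5.56 ± 0.84. Cdh2, encoding N-cadherin, was at 0, 4.89, 5.88 and 6.46, and the tight junction gene Ocln at 6.59, 7.09, 6.45 and 0.

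Secreted signals were lower as a group. Of 49, 34 were above 0 in all 4 libraries and 6 in the top 1000, with a median of 7.09. After Egfl7, Vegfa and Cxcl12 came Efnb1, an ephrin (11.84, 11.59, 11.65 and 11.82), Kitl, the ligand of KIT (10.60, 11.70, 11.04 and 10.93), and Efna1 (11.03 ± 0.30). Pdgfb, which recruits pericytes, was at 9.14, 9.86, 11.09 and 9.77, and its relative Pdgfa at 6.59 ± 0.57. Fgf2, Pdgfd, Rspo3 and Slit3 were listed at 0 in all 4 libraries. In the class I antigen presentation list, 11 of 13 genes were above 0 in all 4, with H2-D1 at 11.90 ± 0.50, H2-K1 at 11.80 ± 0.93 and B2m at 11.29 ± 0.80, and the H2 genes share near-identical sequence that makes their single levels uncertain.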
